A study of Homo sapiens with 15 samples.

Results

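Endotoxin alone was examined in Caco-2 cells by setting the 5 arrays of cells exposed to lipopolysaccharide (LPS) against the 5 arrays of untreated control cells. These 10 arrays were taken by their labels from the 15 of the whole series. The LPS group received LPS from E. coli K12 at 1 µg/mL for 48 h, and the control group received no treatment. The other 5 arrays, of cells given 50 µM trans-resveratrol 1 h before the same LPS exposure, were not compared here. They entered the estimate of the spread of each gene, the choice of probe set, the filter on low values and the cell cycle score. Caco-2 is an established human line from a colon carcinoma that takes on features of enterocytes, the absorptive cells of the gut lining, when it is kept confluent. Cells were used 15 to 19 days after seeding, and 300 ng of RNA per sample went onto a whole-transcript array. All groups were of this 1 line, and the labels name no other cell type in the cultures. The labels number the replicates 1 to 5 and do not say that each came from its own culture. The spread behind the p-values is therefore that of arrays, and it may be technical.

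LPS is the outer-membrane glycolipid of Gram-negative bacteria. It is handed by LBP and CD14 to the receptor TLR4 with its co-receptor MD-2 (gene LY96), which signals through MYD88 to NF-kB and to the MAP kinases, including ERK. Enterocytes face bacterial products all the time and are known for keeping this receptor complex low, and they also hold NOX1, an NADPH oxidase of the colon epithelium that makes superoxide.

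Values are log2 expression values, so a difference of 1 between group means is a ratio of 2, and ± after a difference is its standard error in the limma fit. A gene was called when its Benjamini-Hochberg adjusted limma p over the 11804 genes tested was under 0.05. The groups of a gene were said not to overlap when all 5 LPS arrays lay above, or all 5 below, the 5 control arrays. The words rose and fell are kept for called genes.

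The 10 arrays had medians between 5.49 and 5.54 and correlated pairwise between 0.959 and 0.993 across genes. LPS replicates 1 and 2 stood apart from the other 8 arrays on the second principal component of these 10 arrays (20.8% of the variance), at 16.2 and 18.8 against at most 0.37 in any other array. A cell cycle score, the mean deviation of 60 cell cycle genes from their means over all 15 arrays, was highest in LPS replicates 4 and 5 (0.80 and 0.93), next in control replicates 1 and 2 (0.46 and 0.42), and lowest in control replicate 5 (-0.91). Both patterns recur in the genes below and are given beside them.

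Of 13 enterocyte markers named on the array 12 were tested, and the brush border protein villin (VIL1) read 10.87 ± 0.13 (SD, n = 5) in LPS arrays and 10.94 ± 0.17 (SD, n = 5) in control arrays. Sucrase-isomaltase (SI), a disaccharidase of the brush border, read 11.41 to 12.09 with LPS and 11.80 to 12.59 without. Both groups thus carried defining markers of enterocytes. The 3 tested of 5 named fibroblast and endothelial markers were all higher, and their mean deviation was 0.02 to 0.25 in LPS arrays and -0.20 to -0.08 in controls. LUM, a matrix proteoglycan of fibroblasts, read 6.00, 5.49, 4.87, 5.17 and 5.63 against 4.40 to 5.10, which is 0.68 ± 0.19 (adjusted p = 0.33), and the endothelial genes PECAM1 and VWF differed by 0.10 and 0.14. Their part in the results below was not tested. Immune markers were represented by CD68 and LST1 only, with differences of -0.07 and -0.06 and overlapping groups. CD68, a lysosomal protein that epithelial lines also make, read above 11 in all 10 arrays. In bulk RNA, fewer cells of a type and less RNA per cell cannot be told apart.

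Exposure to LPS raised 3 genes, 0.0254% of those tested, and lowered 0. They were NOX1, the transcription factor ETV4, and the epithelial keratin KRT18. At an unadjusted p under 0.05 limma put 545 genes higher (4.62%) and 385 lower (3.26%), and without regard to size 52.7% of genes were higher and 47.3% lower, with a median difference of 0.01 over all genes. The groups did not overlap for 261 genes (2.21%), of which 128 lay above (1.08%) and 133 below (1.13%). Both balances moved with the scaling: after quantile normalization 449 genes were higher and 477 lower at that p, and 94 lay above and 169 below. After median centring the counts were 474 and 439, and 106 and 163. Differences of at least 1 were found in 7 genes, and all 7 were higher: CEACAM6, CEACAM5, NOX1, DUSP6, KRT20, GUCA2A and CEP55, the largest decrease of any tested gene being 0.75. CEACAM5 and CEP55 were named after their values were seen. The differences of non-overlapping genes had a median of 0.26 among those above and -0.22 among those below.

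**Figure D1:**
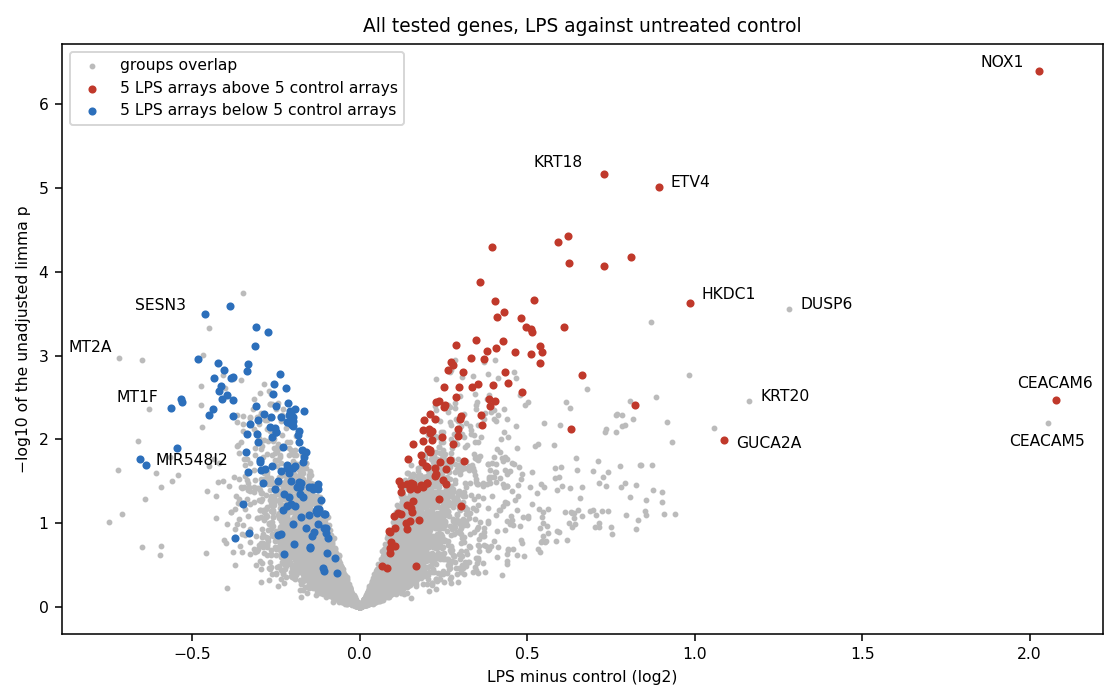
Difference between LPS and control (log2, horizontal) against −log10 of the unadjusted limma p (vertical) for the 11804 tested genes. Red and blue points are the 128 and 133 genes whose 5 LPS arrays all lie above or all below the 5 control arrays. The higher side reaches 2.08 and the lower side ends at -0.75.

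NOX1 had the lowest p of all genes tested. It read 9.51, 9.60, 7.89, 8.45 and 8.58 in LPS replicates 1 to 5 and 6.56, 6.95, 6.91, 6.71 and 6.75 in control replicates 1 to 5. The lowest LPS array stood 0.94 above the highest control array, and LPS replicates 1 and 2 were the highest. The rise was 2.03 ± 0.25, or 4.08-fold (95% interval 1.51 to 2.55, adjusted p = 0.0047), and it was 1.53 without LPS replicates 1 and 2 (adjusted p = 0.000689). The RNA of the tested partner genes of NOX1 differed by near 0, and both overlapped. The organiser NOXO1 differed by -0.03 ± 0.09 (95% interval -0.22 to 0.17) and the activator NOXA1 by 0.00 ± 0.09 (95% interval -0.18 to 0.19). CYBA, another partner gene, had no probe set named here. NOX1 was the single called member among the 6 tested of the NADPH oxidase list.

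The 250 bases upstream of the annotated start of NOX1 are shown because it had the lowest p. The sequence is from RefSeq (GRCh38.p14, chrX:100874360-100874609, minus strand, 5′ to 3′), and capitals mark matches to the ETS core AGGAAG or CGGAAG on either strand, the letters that factors of the ETV4 family bind.
NOX1: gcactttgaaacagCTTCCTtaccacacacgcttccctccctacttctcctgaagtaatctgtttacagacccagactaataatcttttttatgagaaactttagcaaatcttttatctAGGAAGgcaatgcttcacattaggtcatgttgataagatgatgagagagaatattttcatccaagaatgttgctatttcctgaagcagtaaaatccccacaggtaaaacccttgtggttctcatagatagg
There were 2 matches, and 40.8% of 35116 RefSeq upstream sequences of this length held at least 1, so the match is common and describes letters only.

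ETV4, an ETS-family transcription factor and a known output of ERK signalling, rose by 0.89 ± 0.14, or 1.86-fold (adjusted p = 0.038). It read 7.71, 7.71, 7.41, 7.37 and 7.38 with LPS and 6.94, 6.78, 6.49, 6.67 and 6.25 without. All LPS arrays were above all control arrays, with replicates 1 and 2 again at the top. Its relative ETV5 read 5.10 to 5.55 with LPS and 5.07 to 5.28 without, a difference of 0.16 ± 0.09 that did not pass.

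KRT18, a keratin of simple epithelia that pairs with KRT8, rose by 0.73 ± 0.11, or 1.66-fold (adjusted p = 0.038). It read 10.60, 10.70, 10.38, 10.47 and 10.58 with LPS and 9.92, 10.09, 9.85, 9.67 and 9.56 without. Its 5 LPS arrays lay close together, with replicate 3 the lowest and no jump in replicates 1 and 2. A second, dimmer KRT18 probe set was higher by 0.34 with overlapping groups, and the partner KRT8 differed by 0.08 ± 0.12. NOX1 stayed called with any 1 of the 10 arrays left out. ETV4 stayed called when LPS replicate 3 or control replicate 1 was removed, and KRT18 when LPS replicate 3 or control replicate 2 was removed. In each of the other 8 such fits the adjusted p of the gene was over 0.05. In a fit to the 10 arrays alone, without the resveratrol group, the adjusted p was 0.0616 in all 3 genes.

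**Figure D2:**
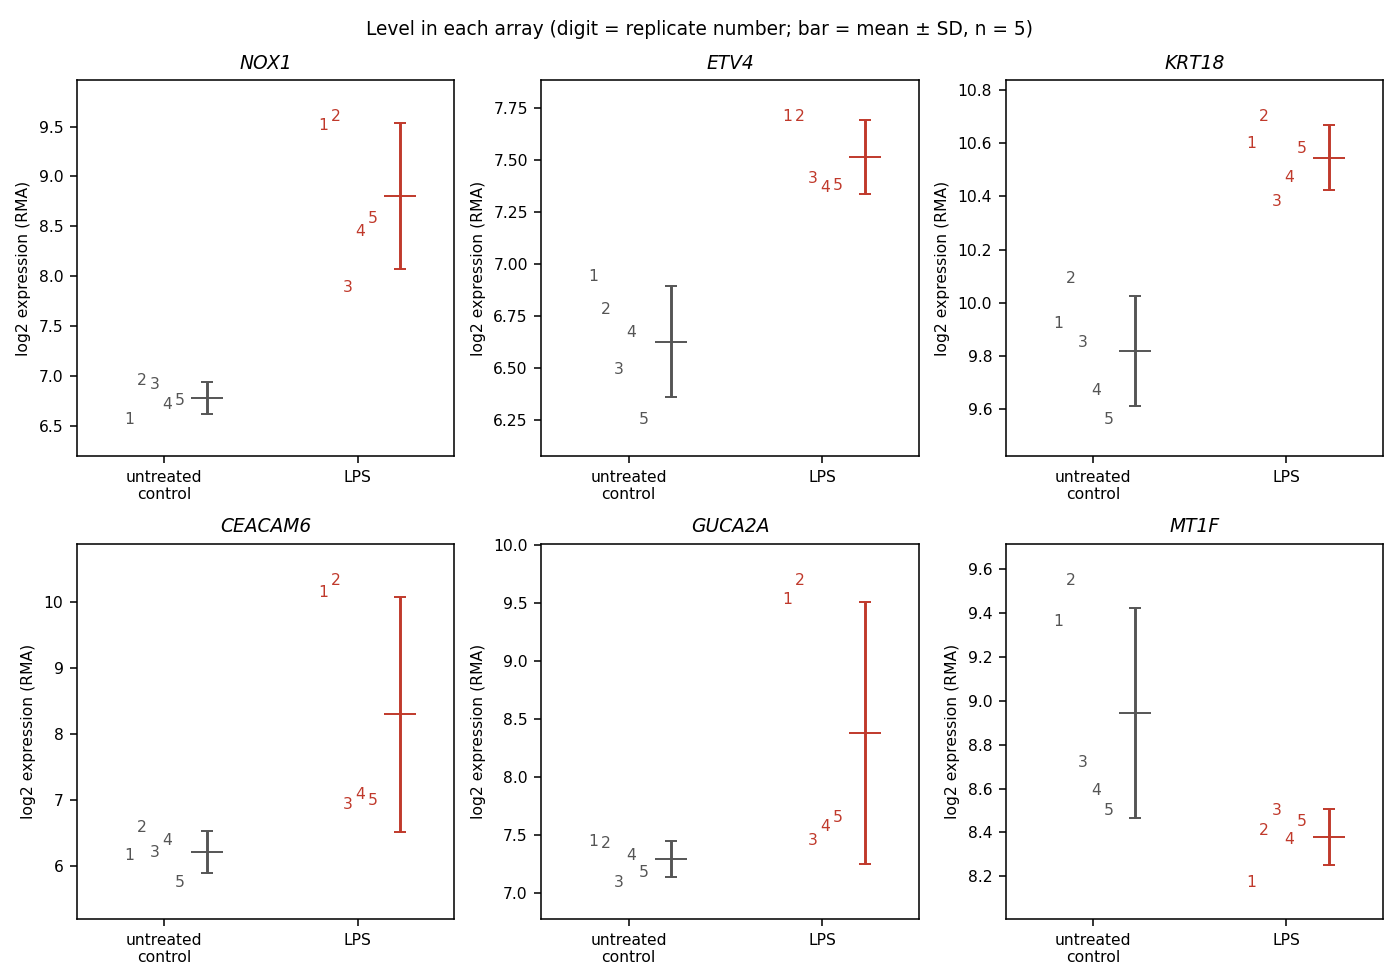
Log2 expression (vertical) of 6 genes in the 5 control and 5 LPS arrays; each digit is the replicate number and the bar is the mean ± SD. NOX1, ETV4 and KRT18 separate the groups by at least 0.28, while CEACAM6 and GUCA2A jump in LPS replicates 1 and 2. In LPS replicates 3 to 5 CEACAM6 still lies above the controls, with a gap of 0.348. GUCA2A lies only just above them there, with a gap of 0.00614.

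The largest difference of all belonged to CEACAM6, a cell-surface adhesion molecule of the carcinoembryonic antigen family that serves some enteric bacteria as a receptor. It read 10.14, 10.33, 6.94, 7.09 and 6.99 with LPS and 6.16, 6.59, 6.21, 6.39 and 5.75 without. The groups did not overlap, but LPS replicates 1 and 2 stood more than 3 above the other 3. The difference of 2.08 ± 0.60 did not pass (adjusted p = 0.351) and was 0.79 without those arrays.

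LPS replicates 1 and 2 also led the genes of this paragraph, which are grouped by that pattern and not by a list. GUCA2A, which encodes guanylin, the gut peptide that drives salt and water secretion, read 9.53, 9.70, 7.46, 7.58 and 7.65 with LPS against 7.09 to 7.45 without, and its difference of 1.09 was 0.27 without LPS replicates 1 and 2. KRT20, a keratin of mature surface enterocytes, read 7.62, 7.96, 6.34, 6.27 and 5.79 against 5.35 to 5.95 and overlapped (1.16, and 0.50 without them). The trefoil peptide gene TFF1 read 10.38 and 9.97 in those arrays and 7.64 to 8.05 in the other 3, against 7.66 to 8.20 in controls, so its difference of 0.80 turned to -0.14 without them. Of 7 tested goblet cell markers 5 were higher with a median of 0.07, and 0 had an unadjusted p under 0.05.

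HKDC1, a hexokinase family member, read 9.06, 9.21, 7.98, 8.25 and 8.07 against 7.19 to 7.67, which is 0.98 ± 0.21 (adjusted p = 0.197) and 0.57 without LPS replicates 1 and 2. TM4SF1, a tetraspanin-like membrane protein, read 10.11, 10.21, 8.87, 8.98 and 8.78 against 8.29 to 8.76, a difference of 0.82 that was 0.31 without them. The ephrin EFNB2 read 7.20 and 7.54 in the pair and 5.92 to 6.31 in the rest, against 5.11 to 5.98 (0.98, overlapping). The alcohol dehydrogenase ADH6 went the other way. It read 6.76 and 6.92 in LPS replicates 1 and 2 and 8.52 to 8.74 in the others, against 8.11 to 9.06 in controls. Its difference was -0.71 ± 0.37.

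Across the 128 genes above, LPS replicates 1 and 2 were the highest pair in 50 (39.1%), against 17.7% of all tested genes, and across the 133 below they were the lowest pair in 35 (26.3%), against 16.1%. LPS replicate 3 lay nearest to the controls in 59 of the 128 (46.1%, against 20.9% of all tested genes) and 52 of the 133 (39.1%, against 19.8%). Whether the LPS arrays differed in culture, day or exposure was not tested, since the labels do not assign arrays to days.

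**Figure D3:**
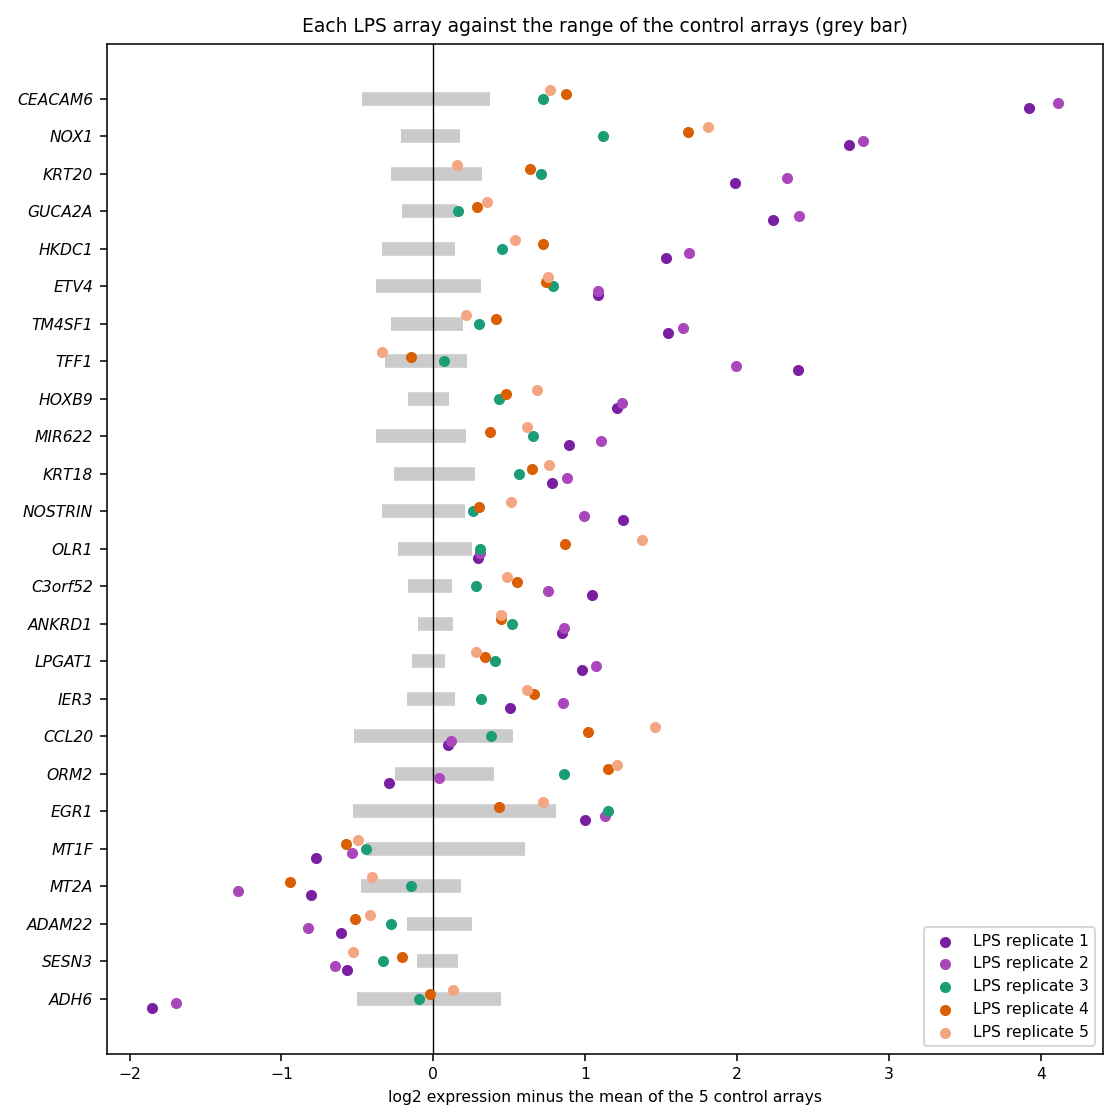
Each LPS array's log2 expression minus the control mean (horizontal) for 25 named genes; grey bars span the 5 control arrays. Replicates 1 and 2 (purple) lead CEACAM6, KRT20, GUCA2A and TFF1, replicates 4 and 5 (orange) lead OLR1 and CCL20, and the 5 arrays stay together for KRT18.

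Several other genes separated the groups with smaller differences. IER3, an early-response survival gene, read 7.91, 8.26, 7.72, 8.07 and 8.02 with LPS and 7.48, 7.55, 7.23, 7.46 and 7.31 without, 0.59 ± 0.11 (adjusted p = 0.0996). It had 11 probe sets, of which 6 gave 0.57 to 0.59 and the other 5 gave -0.15. ANKRD1, a nuclear target of YAP, read 7.31, 7.32, 6.98, 6.91 and 6.91 against 6.36 to 6.59, 0.62 ± 0.11 (adjusted p = 0.0996). Both sat clear of the controls in every array and missed the threshold.

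HOXB9, a homeobox gene of posterior identity, read 8.57, 8.60, 7.79, 7.84 and 8.04 against 7.19 to 7.46, a difference of 0.81 ± 0.15 that was 0.53 without LPS replicates 1 and 2. C3orf52 was higher by 0.62 ± 0.12 and the anti-apoptotic BCL2L1 by 0.36 ± 0.07, the latter reading 9.40 to 9.68 with LPS and 9.12 to 9.24 without. LPGAT1, a lysophospholipid acyltransferase, read 10.30, 10.39, 9.73, 9.66 and 9.60 against 9.18 to 9.40, and its difference of 0.61 was 0.34 without LPS replicates 1 and 2. NOSTRIN, a regulator of nitric oxide synthase trafficking, read 6.75, 6.49, 5.76, 5.80 and 6.01 against 5.16 to 5.71, and its difference of 0.66 was 0.36 without them. HOXB9, LPGAT1 and NOSTRIN thus had the same high pair of arrays. OLR1, the receptor for oxidised low-density lipoprotein, read 7.36, 7.37, 7.37, 7.93 and 8.44 against 6.83 to 7.32, with LPS replicates 4 and 5 highest.

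The genes that sense LPS and answer through NF-kB showed no common shift. TLR4 read 5.32, 5.08, 5.10, 4.76 and 5.11 with LPS and 5.23, 4.96, 5.35, 5.20 and 4.94 without, a difference of -0.07 ± 0.11. CD14 differed by 0.14 ± 0.09 and MYD88 by -0.12 ± 0.14, and LY96 lay below the filter on low values, at 2.11 to 2.54 with LPS and 2.19 to 2.55 without. Of 15 tested members of the receptor and adaptor list 8 were higher and 7 lower with a median of 0.00, which is that of all genes to within 0.01, and 0 passed.

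Among 13 NF-kB subunits and feedback genes 8 were higher, the median was 0.05 and 0 passed. The ubiquitin ligase BIRC2 was the member whose groups did not overlap, and it was lower: 8.92 to 9.03 with LPS against 9.19 to 9.24 without (-0.24 ± 0.16, an error that includes the spread of the resveratrol arrays). NFKBIA and TNFAIP3, the usual feedback readouts, had no probe set named here. Of 20 interferon-response genes 11 were higher with a median of 0.04, and 0 reached an unadjusted p under 0.05.

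Cytokines and chemokines gave 11 of 16 higher with a median of 0.05 and 0 called. CCL20, which draws dendritic cells and lymphocytes to epithelium, read 7.89, 7.91, 8.17, 8.81 and 9.25 with LPS and 8.15, 8.32, 7.72, 7.51 and 7.27 without. Its high arrays were LPS replicates 4 and 5, the same that had the highest cell cycle score, and the difference of 0.61 ± 0.32 did not pass. TNF differed by 0.01 ± 0.10. CXCL8 lay below the filter, at 4.19 to 4.70 against 4.10 to 4.26. CXCL16, a membrane-bound chemokine, was higher by 0.29 and CX3CL1 lower by 0.27, with unadjusted p of 0.0226 and 0.0326 and overlapping groups.

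Antimicrobial and acute-phase genes were the defence group with the largest median. Of 19 tested, 16 were higher with a median of 0.21 against 0.01 over all genes, 5 reached an unadjusted p under 0.05 and 0 were called or free of overlap. ORM2, an acute-phase glycoprotein, read 7.72, 8.05, 8.87, 9.16 and 9.22 with LPS and 7.76 to 8.41 without, so it was high in replicates 3 to 5 and within or below the control range in 1 and 2. It was among the 3 genes called when LPS replicates 1 and 2 were left out, with a difference of 1.08 there (adjusted p = 0.0272). The fibrinogen chain FGA was higher by 0.24 ± 0.10. The 19 members' mean deviation was 0.00 to 0.17 in LPS arrays and -0.12 to -0.06 in controls, so the groups did not overlap on it. With 1 array left out the median ran from 0.10 to 0.23, and it was 0.09 with the cell cycle score as a covariate.

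Immediate-early and ERK output genes were mostly higher. In the immediate-early list 19 of 21 were higher with a median of 0.16, and 7 reached an unadjusted p under 0.05. In the list of ERK feedback and output genes 14 of 16 were higher with a median of 0.18, 7 at an unadjusted p under 0.05, and ETV4 was the called member. Above without overlap lay 2 of these 16 and 1 of the 21 immediate-early genes, against 1.08% of all genes. The mean deviation of the ERK list was 0.02 to 0.29 in LPS arrays and -0.23 to 0.00 in control arrays, highest in LPS replicates 1 and 2, and without those arrays the medians of the immediate-early and ERK lists were 0.10 each. Of 22 kinases of the MAPK cascades 14 were higher with a median of 0.02, and 1, lower, had an unadjusted p under 0.05. Of 20 dual specificity phosphatases 11 were higher with a median of 0.04. In that list 3 were higher and 3 lower at an unadjusted p under 0.05. DUSP19 and DUSP22 lay below without overlap (-0.38 ± 0.11 and -0.22 ± 0.07), 2 of 20 against 1.13% of all genes.

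DUSP6, the phosphatase that ERK induces to switch itself off, read 8.97, 9.07, 8.29, 7.87 and 7.81 with LPS and 6.85, 6.92, 6.70, 7.90 and 7.23 without. Control replicate 4 reached into the LPS range, and the difference of 1.28 ± 0.28 gave an adjusted p of 0.203. MYC, which drives growth and ribosome production, read 7.39, 7.45, 6.75, 7.42 and 7.77 against 6.59, 6.77, 6.30, 6.45 and 6.31 (0.87 ± 0.20, adjusted p = 0.219). One control array, replicate 2, stood just above LPS replicate 3, and MYC was called when that LPS array was left out. CCND1, the cyclin that opens the G1 phase, read 8.74 to 9.13 against 8.44 to 8.66 without overlap (0.43 ± 0.09). EREG, a ligand of the EGF receptor, was higher by 0.81 ± 0.24 and HBEGF by 0.30 ± 0.12, both overlapping, in a list where 9 of 11 were higher.

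EGR1, the serum-response transcription factor, read 8.48, 8.61, 8.63, 7.91 and 8.20 with LPS and 6.95, 7.08, 7.17, 7.91 and 8.29 without. Control replicates 4 and 5, the arrays with the lowest cell cycle scores, were as high as the lower LPS arrays. The difference was 0.88 ± 0.25 (adjusted p = 0.351), 0.30 in its second probe set, and 1.29 with the cell cycle score as a covariate (adjusted p = 0.00382). FOS was higher by a smaller size, 0.35 ± 0.15 and 0.56 with the covariate (adjusted p = 0.0325), and differed by 0.04 in a dimmer probe set. With that covariate 70 genes were called, 41 higher and 29 lower, among them the 3 called without it and DUSP6, KRT20, HKDC1, ANKRD1, IER3 and STC2. The covariate was itself measured on these arrays, and whether the groups differed in proliferation for another reason was not tested.

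The EGR1 upstream sequence is shown because EGR1 is the textbook early gene and carries the serum response element in the same window (GRCh38.p14, chr5:138465229-138465478, plus strand, RefSeq). Capitals mark the CArG boxes, read on both strands.
EGR1: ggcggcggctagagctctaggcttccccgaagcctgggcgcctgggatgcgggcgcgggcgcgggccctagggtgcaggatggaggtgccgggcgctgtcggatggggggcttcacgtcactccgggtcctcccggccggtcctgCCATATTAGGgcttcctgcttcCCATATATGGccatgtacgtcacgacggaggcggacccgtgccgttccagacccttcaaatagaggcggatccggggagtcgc
It held 2 CArG boxes, and 1.16% of the 35116 upstream sequences held any. The FOS window of this length held 0, but bases further upstream were not read for either gene. These counts describe letters only.

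Metallothioneins, small cysteine-rich proteins that bind zinc and copper and are switched on by metals through MTF1, formed the group with the lowest median. Of 6 tested, 5 were lower with a median of -0.42 and 0 called. MT1F read 8.17, 8.41, 8.50, 8.37 and 8.45 with LPS and 9.36, 9.55, 8.72, 8.59 and 8.50 without, a difference of -0.56 ± 0.17 (adjusted p = 0.351). Its LPS arrays lay just under the lowest control array, and the spread was in the controls, where replicates 1 and 2 were high. Without those control arrays the MT1F difference was -0.22. With the cell cycle score as a covariate it was -0.78, and MT1F was called (adjusted p = 0.0227).

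MT2A read 5.75, 5.27, 6.41, 5.61 and 6.15 against 6.74, 6.72, 6.55, 6.69 and 6.08 (-0.72 ± 0.18, adjusted p = 0.29). MT1X read 5.55, 5.73, 6.47, 5.52 and 5.69 against 6.35, 6.66, 6.70, 6.35 and 6.15 (-0.65 ± 0.16, adjusted p = 0.29). In both, LPS replicate 3 sat among the controls and the other 4 LPS arrays were lower than most of them, and MT1X was called without that array. The metal sensor MTF1 differed by 0.02 ± 0.07.

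MT2A and MT1X are shown with their upstream sequences because these 2 members lay lowest together (GRCh38.p14, RefSeq, plus strand, chr16:56608334-56608583 for MT2A and chr16:56682220-56682469 for MT1X). Capitals mark the metal response element core, TGCACNC or TGCGCNC, on either strand.
MT2A: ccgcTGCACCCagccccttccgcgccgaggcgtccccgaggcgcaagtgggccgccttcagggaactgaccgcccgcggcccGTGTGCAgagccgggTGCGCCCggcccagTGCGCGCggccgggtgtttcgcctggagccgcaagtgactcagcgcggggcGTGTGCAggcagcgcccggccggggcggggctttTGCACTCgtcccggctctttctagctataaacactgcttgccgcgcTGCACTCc
MT1X: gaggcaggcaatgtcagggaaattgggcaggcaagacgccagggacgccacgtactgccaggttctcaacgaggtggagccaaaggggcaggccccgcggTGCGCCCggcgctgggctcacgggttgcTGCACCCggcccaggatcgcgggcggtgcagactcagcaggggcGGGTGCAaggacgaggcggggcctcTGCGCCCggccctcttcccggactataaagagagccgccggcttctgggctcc
MT2A held 7 matches and MT1X held 4. At least 1 match stood in 24.8% of all upstream sequences and 4 or more in 0.37%. MT4 was the tested member that was not lower (0.13). The counts of matches describe letters only and were not compared with the differences.

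Cell cycle genes were higher on average but did not separate the groups. All 32 tested genes of G2 and mitosis were higher, with a median of 0.72 and 17 at an unadjusted p under 0.05, yet 0 were called and 0 were free of overlap. MKI67, the proliferation antigen, read 10.02, 10.03, 9.56, 10.75 and 10.83 with LPS and 10.10, 10.02, 9.59, 9.18 and 8.39 without (0.78 ± 0.34). PLK1, a mitotic kinase, read 9.14 ± 0.60 (SD, n = 5) against 8.30 ± 0.66 (0.84 ± 0.33). The list's mean deviation was 0.83 and 1.03 in LPS replicates 4 and 5 and -1.27 in control replicate 5, with the other 7 arrays between -0.55 and 0.27. With 1 array left out the median ran from 0.48 to 0.88. Of 28 genes of G1 and replication 27 were higher with a median of 0.30, which ran from 0.14 to 0.45 with 1 array left out. With the cell cycle score, built from these genes, as a covariate the medians were -0.12 for G1 and replication and 0.11 for G2 and mitosis.

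Ribosome biogenesis genes were higher in 17 of 18 cases with a median of 0.20, and 8 had an unadjusted p under 0.05. Their mean deviation was highest in LPS replicates 4 and 5 (0.20 and 0.22) and lowest in control replicate 5 (-0.31), the arrays at the ends of the cell cycle score, and the median was 0.10 with that score as a covariate. The nucleolar helicase DDX21 read 9.92, 9.95, 9.65, 10.15 and 10.09 against 9.17 to 9.55 (0.51 ± 0.12, adjusted p = 0.22), and the methyltransferase NOP2 read 7.86 to 8.11 against 7.63 to 7.77 (0.29 ± 0.07). Neither overlapped, 2 of 18 against 1.08% of all genes. Polyamine synthesis gave 9 of 10 higher, ODC1 by 0.50 ± 0.15 (0.27 with the covariate). Ribosomal proteins themselves went slightly the other way, with 39 of 50 cytosolic ones lower, a median of -0.04 and 0 called.

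**Figure D4:**
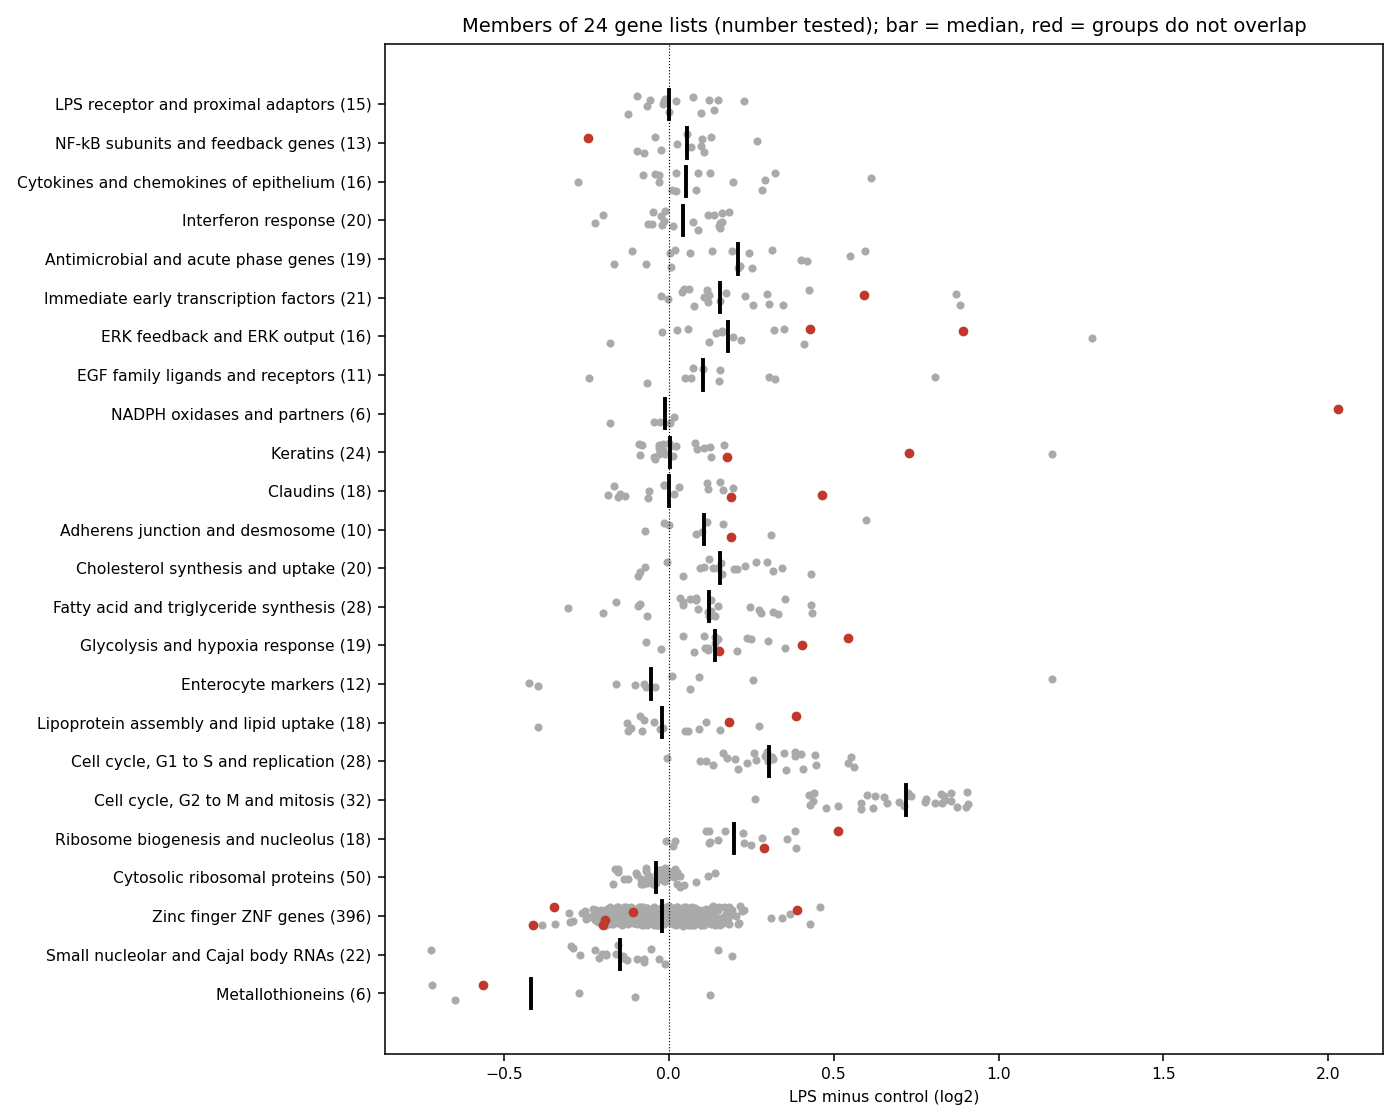
Differences between LPS and control (log2, horizontal) of the tested members of 24 gene lists (vertical, number tested in brackets); the bar is the median and red points are genes whose groups do not overlap. The G2 and mitosis list has a median of 0.72 with 0 red points, and the metallothioneins have the lowest median, -0.42.

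Lipid synthesis and sugar metabolism lists had small positive medians. In cholesterol synthesis and uptake 16 of 20 genes were higher with a median of 0.15, and FDPS, the farnesyl diphosphate synthase, was higher by 0.34 ± 0.10 and the sterol sensor INSIG1 by 0.43 ± 0.16. In fatty acid and triglyceride synthesis 22 of 28 were higher with a median of 0.12, led by the desaturase FADS1 (0.43 ± 0.14) and fatty acid synthase FASN (0.33 ± 0.11), while 2 of its 6 lower genes had an unadjusted p under 0.05. Of 13 genes of fatty acid oxidation 8 were lower with a median of -0.03, and of 18 genes of lipoprotein assembly and lipid uptake 10 were lower with a median of -0.02. Neither synthesis list had a called or non-overlapping member, and their medians were 0.09 and 0.06 without LPS replicates 1 and 2. Control replicate 3 had the lowest mean deviation in the cholesterol list, -0.22, and LPS replicate 2 the highest, 0.23.

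In the glycolysis and hypoxia list 17 of 19 were higher with a median of 0.14 and 3 of 19 lay above without overlap, against 1.08% of all genes, with a median of 0.07 without LPS replicates 1 and 2. EPAS1, the hypoxia factor HIF-2 alpha, read 8.29, 8.37, 7.79, 7.74 and 7.85 against 7.30 to 7.63 (0.54 ± 0.13). HK2, an inducible hexokinase, read 7.07 to 7.47 against 6.56 to 7.05 (0.40 ± 0.12), and VEGFA 8.76 to 8.95 against 8.59 to 8.74 (0.15 ± 0.07). EPAS1 and HK2 had an adjusted p of 0.29 and 0.351. Respiratory chain and ATP synthase genes gave 17 of 24 lower with a median of -0.04.

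Genes of the mature enterocyte varied more within groups than between them. Of 12 markers 5 were higher with a median of -0.05, and the list's mean deviation ran from -0.40 to 0.32 in LPS arrays and from -0.34 to 0.33 in controls. APOA4, an apolipoprotein of chylomicrons, read 9.85, 10.17, 9.91, 8.29 and 8.02 with LPS and 8.56, 8.47, 9.55, 11.02 and 10.62 without. SI was lower by 0.42 ± 0.18. The arrays low in APOA4, LPS replicates 4 and 5 and control replicates 1 and 2, were those with the highest cell cycle scores. LGR5, the crypt stem cell receptor, was high in control replicates 1 and 2 (6.90 and 7.09) and LPS replicates 4 and 5 (6.40 and 6.77) and read 5.51 to 6.04 elsewhere. APOA2 was the lipoprotein gene that separated the groups most, 12.30 to 12.71 against 11.77 to 12.29 (0.39 ± 0.11).

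**Figure D5:**
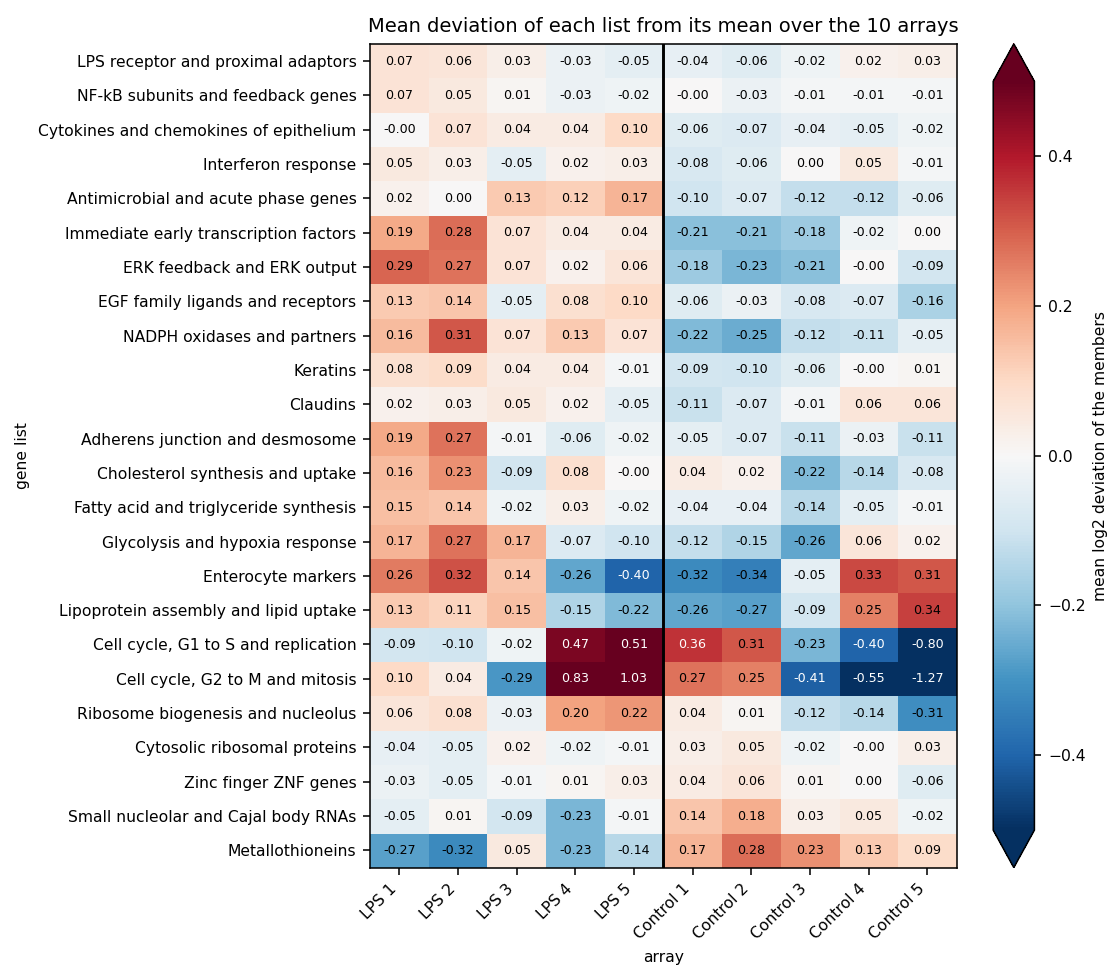
Mean log2 deviation of each list's tested members from their means over the 10 arrays, per array (columns) and list (rows); red is higher and blue lower, with colours ending at -0.5 and 0.5. Cell cycle lists are high in LPS replicates 4 and 5 and control replicates 1 and 2, where the enterocyte list is low, and the ERK list is above 0 in all 5 LPS arrays.

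Among keratins 2 of 24 and among claudins 2 of 18 lay above without overlap, against 1.08% of all genes. Of the 24 keratins 12 were higher with a median of 0.00, and beside KRT18 the stress-related KRT23 lay above without overlap (5.20 to 5.31 against 4.91 to 5.20, 0.18 ± 0.10). Among 18 claudins, the sealing proteins of tight junctions, 9 were higher with a median of 0.00. The pore-forming claudin CLDN2 read 6.72, 6.57, 6.42, 6.67 and 6.44 against 6.13, 6.09, 5.98, 6.36 and 5.94 (0.46 ± 0.11, adjusted p = 0.29), and CLDN1 read 11.09 to 11.39 against 10.89 to 11.07 (0.19 ± 0.08). Plakoglobin (JUP) was higher by 0.19 without overlap. The polarity scaffold PARD3 was lower by 0.20 ± 0.07, with control replicate 5 inside the LPS range.

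Single members of other pathways separated the groups with small differences. NFE2L2, the oxidative stress factor NRF2, read 8.25 to 8.34 against 7.84 to 8.09 (0.31 ± 0.12), while its target and antioxidant list had 13 of 23 higher and a median of 0.01. GDF15, a stress cytokine, was higher by 0.43 ± 0.11, in a TGF beta signalling list with 12 of 17 higher and a median of 0.12, which was 0.00 without LPS replicates 1 and 2. STC2, a secreted glycoprotein of the integrated stress response, was higher by 0.48 ± 0.11, SQSTM1, the autophagy receptor p62, by 0.23 ± 0.07, and SOX4, a WNT-linked transcription factor, by 0.44 ± 0.12. Without LPS replicates 1 and 2 SQSTM1 was 0.14 and SOX4 0.22, and the autophagy and lysosome list had 20 of 29 lower with a median of -0.03. The splicing protein HNRNPAB read 9.67 ± 0.10 (SD, n = 5) against 9.25 ± 0.17 (0.43 ± 0.10). Their adjusted p-values ran upward from 0.21 in STC2 to 0.543 in NFE2L2.

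The lower side held smaller differences and more non-coding genes. Of the 133 genes below, 17 were long non-coding RNAs (12.8%), against 2 of the 128 above (1.56%) and 7.29% of all tested genes. ADAM22, a non-catalytic surface protein, read 7.75, 7.53, 8.08, 7.84 and 7.94 with LPS and 8.19, 8.44, 8.61, 8.18 and 8.36 without (-0.53 ± 0.16). SESN3, a sestrin that restrains mTORC1, read 8.67 to 9.11 against 9.21 to 9.48 (-0.46 ± 0.10, adjusted p = 0.21). NBEA and BANK1, scaffold proteins of vesicle traffic and B cell signalling, were lower by 0.44 and 0.42.

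The non-coding genes CCDC18-AS1, KC6, PWAR1, PAXIP1-AS2 and MGC16275 were lower by between 0.42 and 0.55, each without overlap. PI15 was lower by 0.45, SMLR1 by 0.42 and ZNF514 by 0.41. Zinc finger ZNF genes as a family gave 224 of 396 lower with a median of -0.02. Their lower side held 22 genes at an unadjusted p under 0.05 and 5 without overlap, and their higher side 5 and 1, against 3.26% and 1.13% of all genes on the lower side and 4.62% and 1.08% on the higher. The 5 of 396 below without overlap are near that background. Cajal body RNAs were lower in 20 of 22 cases with a median of -0.15 and 0 without overlap. SCARNA3 was lower by 0.72 ± 0.29, and its control replicates 1 and 2 were high, at 8.04 and 8.38 against 6.78 to 7.30. Without those control arrays its difference was -0.22.

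MicroRNA genes as a class did not shift, with 239 of 476 higher, a median of 0.00 and 0 called. The array reads transcripts at the miRNA gene, and whether it reads the host RNA, the hairpin or the mature form is not given in the sources used here. Of the 476, 2 lay above and 3 below without overlap, smaller shares than the 1.08% and 1.13% of all genes. MIR622 read 8.16, 8.37, 7.92, 7.64 and 7.88 with LPS and 7.28, 7.48, 7.30, 7.38 and 6.89 without (0.73 ± 0.14, adjusted p = 0.112), and MIR3911 read 5.62 to 5.72 against 5.34 to 5.48 (0.24 ± 0.07). MIR548I1 and MIR548I2 were lower by 0.64 ± 0.25 and 0.66 ± 0.25. They are near-identical copies whose probes may share transcripts, so they count as 1 observation. MIR424 was lower by 0.24 and was named after its value was seen.

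Mature sequences from RefSeq (GRCh38.p14) are shown for the separating miRNA genes found in its table, with the seed, bases 2 to 8, in capitals. MIR622 lies at chr13:90231242-90231262 on the plus strand, MIR3911 at chr9:127690763-127690784 and miR-424-5p at chrX:134546680-134546701, both on the minus strand.
hsa-miR-622: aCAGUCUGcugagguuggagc
hsa-miR-3911: uGUGUGGAuccuggaggaggca
hsa-miR-424-5p: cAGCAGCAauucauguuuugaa
The 3 seeds differ from each other and from that of miR-424-3p (AAAACGU), whose full sequence is not printed. MIR548I1 and MIR548I2, which also lay below, had no sequence to read, so seeds were compared for MIR622, MIR3911 and MIR424 only.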

How the data were processed

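The authors deposited log2 expression per probe set and array, made with RMA per the submitters' processing notes; RMA corrects background, quantile-normalizes and summarises probes, so a shift common to all genes of an array would be removed. The version and the annotation build are not given in the sources used here. Of 53617 rows 16098 carried 1 gene symbol and 37519 were unnamed here, so families such as solute carriers are hardly covered. Of 84 gene lists 22 had fewer than 5 tested members. Of these only the immune markers and the fibroblast and endothelial markers were described as lists.

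The probe set with the highest mean stood for its symbol. Genes above the 40th percentile of an array in at least 5 of 15 arrays were kept (11804 of 14884). Group means of 3 groups were fitted with limma 3.58.1 in R 4.3.3 and p-values adjusted by Benjamini-Hochberg; the script was tested on simulated data. No pseudocount was needed. The members and lists were chosen with earlier results of these data known. Named genes were the called ones, the 15 of largest difference per direction without overlap, up to 4 non-overlapping members per list (or 2 of lowest p), and 30 listed genes. Alternatives covered filter, probe sets, normalization, moderation, weights, covariate, block and left-out arrays. The number of arrays limits the precision.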

Additional observations from a re-analysis of the deposited data

Results flagged for a closer look

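For each named gene and each gene list, the 5 arrays of a group were checked for 1 array far from the other 4, taking its gap to the nearest array as a share of the range of the group (Dixon's test). Of 348 groups of 5 checked 14 had such an array, and chance alone gives about 1 in 20. No explanation was examined for any of them.

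Among the control arrays, CLDN1 was low in replicate 1 (10.89, the nearest control at 11.06) and VEGFA was low in replicate 5 (8.59, nearest 8.73). DDX21 and MT2A were also low in control replicate 5, at 9.17 and 6.08 with the nearest at 9.45 and 6.55. Replicate 3 was low for HKDC1 (7.19, nearest 7.54) and high for the immune marker LST1 (6.67, nearest 6.52). MIR3911 was low in replicate 1 (5.34, nearest 5.44), and in replicate 2 MT4 was low (7.04, nearest 7.27) and DUSP19 was high (7.73, nearest 7.46). The mean deviation of the unfolded protein response list was -0.05 in control replicate 3, with the nearest control at -0.02.

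Among the LPS arrays, MT1X was high in replicate 3 (6.47, nearest 5.73), the array that lay among the controls for this gene. TNF was high in replicate 4 (6.65, nearest 6.48) and MIR424 was low in replicate 1 (5.87, nearest 5.98). The mean deviation of heat shock proteins and chaperones was -0.07 in LPS replicate 1, with the nearest LPS array at 0.02.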

How the results depend on the processing

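The 3 called genes were the same under each of 3 renormalizations, a stricter filter, averaged probe sets and another moderation, and 1 more, HRG, was called with no filter. The count was 15 with array weights (13 higher, 2 lower), 70 with the cell cycle score as a covariate (41 higher, 29 lower) and 0 in limma on the 10 arrays alone, where 1101 genes had an unadjusted p under 0.05. With 1 array left out it ran from 1 to 10, the 10 being without LPS replicate 3, and NOX1 was called each time. Without LPS replicates 1 and 2 the calls were NOX1, ORM2 and SLPI, and ETV4 and KRT18 were lost. The 930 genes at an unadjusted p under 0.05 became 1469 with array weights and 1876 with the covariate. The 261 genes without overlap became 338 to 575 with 1 array left out. They became 631 without LPS replicates 1 and 2 and 1254 without control replicates 1 and 2. Fewer arrays overlap more rarely, but both of these settings left out the same number of arrays. Control replicates 1 and 2 had the highest cell cycle scores of their group (0.46 and 0.42), and the reason for the larger count was not tested. The setting without control replicates 1 and 2 was chosen after the data were seen. Of the 261, between 184 and 208 were shared after renormalization.

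With the replicate number as a block 6 genes were called. Deviations from the group means correlated at -0.188, -0.267, 0.119, -0.366 and -0.541 between same-numbered arrays, and 0 of 5 matched their own number best. These deviations hold every difference between arrays, the cell cycle score among them. They therefore cannot show whether same-numbered arrays shared a culture or day, which the labels do not say.

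Of 112 gene differences, 13 changed sign under at least 1 of 23 alternatives, and the cause was not tested. With the covariate APOA4 was 0.80, CD68 0.19, MYD88 0.10, VIL1 0.07, NOXO1 0.05, MTF1 -0.01 and TNF -0.04. Without LPS replicates 1 and 2 LGR5 was 0.18, NOXO1 0.03, ADH6 0.00, TFF1 -0.14 and MTTP -0.48. Without control replicates 1 and 2 LGR5 was 0.46, NOXA1 -0.10 and MTTP -0.55. With array weights LGR5 was 0.16, NOXA1 -0.04 and MTTP -0.16. Median centring gave NOXA1 -0.01 and TNF 0.00, and quantile normalization gave NOXA1 -0.01 and MTF1 0.00. With 1 array left out CD68 ran from -0.16 to 0.03, LGR5 from -0.23 to 0.16, MTF1 from -0.02 to 0.04, MTTP from -0.13 to 0.43, NOXA1 from -0.06 to 0.04, NOXO1 from -0.07 to 0.03, TLR4 from -0.13 to 0.01 and TNF from -0.06 to 0.05. Of 1426 list medians under alternatives, 61 differed in sign from the reported one. Probe signal over background is not given in the sources used here.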

Other observations

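The families in this paragraph were picked after their values were seen, so their counts describe these arrays and have no test. Among genes of the primary cilium, the BBS and IFT families that build and load the ciliary shaft, 20 of 24 tested members were lower with LPS, with a median of -0.08 against 0.01 over all genes. The groups did not overlap in 3 of the 24, against 1.13% of all genes below: BBS2 was lower by 0.27, IFT172 by 0.28 and IFT20 by 0.15. None of the 24 was called. They were taken by symbol and include IFT122P3 (-0.12), which is a pseudogene by its name.

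Of 9 tested HOXB genes 8 were higher with a median of 0.15, and HOXB9 and HOXB3 (0.28) lay above all control arrays, against 1.08% of all genes. Over all 26 tested HOX genes 16 were higher and 10 lower, with a median of 0.05. Of 9 tested CEACAM genes 7 were higher, and the differences of 2.08 in CEACAM6, 2.06 in CEACAM5, 0.93 in CEACAM7 and 0.78 in CEACAM1 stood above the rest. LPS replicates 1 and 2 carried most of each: CEACAM5 read 10.79 and 10.84 there and 7.02 to 7.39 in the other LPS arrays. Without those arrays CEACAM6 was 0.79, CEACAM5 0.60, CEACAM7 0.29 and CEACAM1 0.35. The 3 fibrinogen chains were all higher, FGB by 0.42, FGG by 0.40 and FGA by 0.24, with overlapping groups in each.

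With the cell cycle score as a covariate the called genes also included HSD17B2, an oestradiol-inactivating enzyme (1.16, adjusted p = 0.0227), MTTP, which loads lipoproteins (1.14, adjusted p = 0.0437), and the kinase genes MAP2K5 and MAP2K6 (-0.36 and -0.53, adjusted p = 0.0353 and 0.0341). These were named after their values were seen. Without the covariate MTTP differed by 0.15 (adjusted p = 0.977), and it was lower with LPS under other settings.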
